A study of Homo sapiens with 4 samples.

Results

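Isolated open regions are stretches of accessible chromatin that stand alone in the genome, with no other open region of the same kind for more than 500 kb on either side. There were 393 of them among the 8557 regions that both control lists shared (4.59%). Peaks of the 4 deposited lists that shared at least 1 bp were first merged into 20450 regions, and the members were then chosen by 2 measured properties: a peak in both control lists, and the gap from end to start to the nearest other such region on the same chromosome. Their presence and strength in the knockdown lists were not used in the choice. For 5 members at the end of a chromosome's list, the side with no neighbour counted as far.

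The data are ATAC-seq libraries of the human colon cancer line RKO, made to follow chromatin accessibility when the remodeller CHD7 is depleted. The cells had been stably infected with lentivirus carrying either a control or shCHD7-2, a single short hairpin RNA against CHD7, and each group held 2 libraries. The labels do not say whether replicates came from separate cultures, so the spread between them may be technical alone, and the level of CHD7 itself was not measured in these files. The lists held from 7199 to 13257 peaks on chromosomes 1 to 22 and X. The shCHD7-2 lists were the shorter ones, although their background pileup (the reads expected at a typical position, a measure of relative depth) was higher, at 1.40 and 1.62 reads against 0.916 and 0.843 reads in control.

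In ATAC-seq the Tn5 transposase inserts adapters into DNA that nucleosomes leave free, so reads pile up over promoters, enhancers and sites bound by insulator proteins. Open regions are usually crowded where genes are dense and sparse in gene-poor stretches. A lone open region can be the single regulatory element of a long interval. The position of the members relative to genes was not examined here. CHD7 is a chromodomain helicase that slides nucleosomes with the energy of ATP and is known to bind enhancers as well as promoters. Gaps in the genome assembly, such as centromeres, also separate regions and were not removed here.

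The space around the members was wide. The distance to the nearest other control region ran from 500.5 kb to 4225 kb with a median of 707 kb, against a median of 65.4 kb for the other 8164 control regions. For 94 members it exceeded 1 Mb and for 18 it exceeded 2 Mb. The larger of the 2 gaps had a median of 1347 kb. Of the members, 185 lay in 78 runs of neighbouring members, the longest of 5, and 208 had no member as a neighbour. The rule favours such runs, since a wide gap counts for the regions on both of its sides. Whether there were more runs than the rule alone would give was not tested. Regions just inside the distance threshold lay on chromosome X from 130036831 to 130037586 (hg19, as all coordinates here) at 500.5 kb and on chromosome 10 from 128437491 to 128437948 at 500.9 kb. The nearest ones outside it were a pair on chromosome X, from 64254591 to 64255612 and from 64754287 to 64754992, which lay 498.7 kb apart.

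In the control lists the members looked much like other control regions. Strength was described by the reads at a peak's summit and by its percentile rank within its own list by -log10 p, where 100 is the strongest region of the list. The mean rank over both control lists ran from 2.80 to 99.9 in members, with a median of 60.7 against 62.6 in the others. Members at ranks over 90 made up 11.2%, against 12.6% of the others, and members at ranks under 25 made up 10.9% against 8.68%. Median summit reads were 15 and 14 in the control replicates, against 17 and 15 in the others. Peaks were narrower, with medians of 518 bp and 503 bp against 578 bp and 549 bp. The local background at the summit, relative to that of the whole library, was lower as well, at 1.51 and 1.52 times against 1.83 and 1.85 times. These control values belong to the lists that chose the members and are given as a description.

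**Figure D1:**
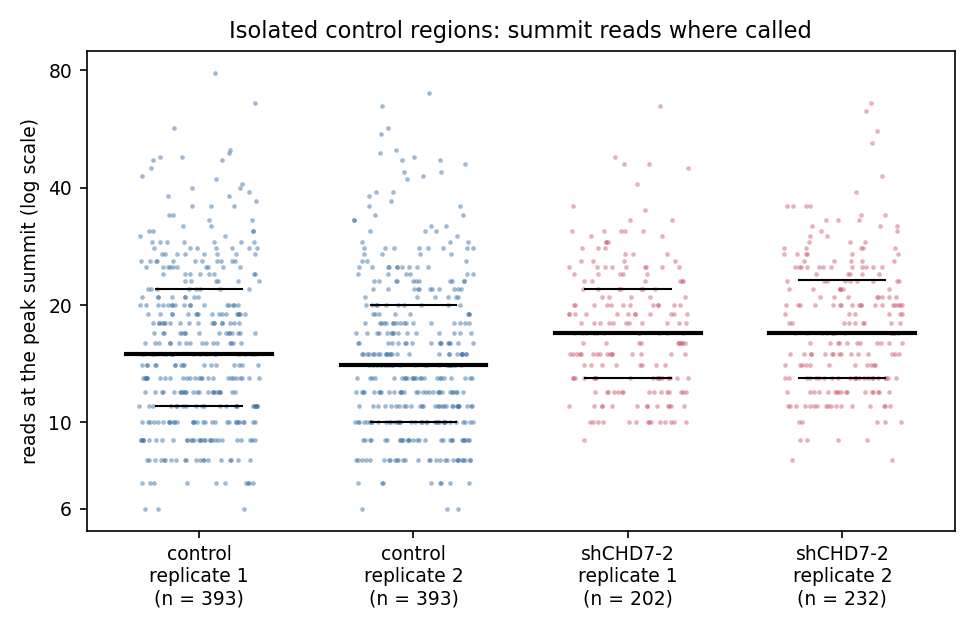
Reads at the peak summit (y axis, log scale) of the isolated control regions in each library (x axis), 1 point per region called there, with thick bars at the median and thin bars at the quartiles. All 393 regions have a control value, while 202 and 232 have one in the shCHD7-2 lists, where the median was 17 reads. Some of the lowest control points rest on a solved background below that of the library and may be too low.

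About as many isolated regions as other regions lacked a peak in the CHD7 knockdown. Of the 393 members, 172 (43.8%, 95% Wilson interval 38.9% to 48.7%) were called in both shCHD7-2 libraries, 90 (22.9%, 19.0% to 27.3%) in 1 of them and 131 (33.3%, 28.9% to 38.1%) in neither. The same classes held 39.7%, 25.9% and 34.4% of all control regions. Regions called in neither shCHD7-2 library are referred to as lost and those called in both as retained, although a peak missing from a list may lie just under the caller's threshold. The lost share was 1.16 percentage points lower in members than in the other control regions, and the 95% Newcombe interval of the difference, from -5.76 to 3.75 points, included 0. Such intervals reflect the number of regions counted and leave out any variation between cultures.

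By library, shCHD7-2 replicate 1 had a peak in 202 members (51.4%) against 49.5% of all control regions, and shCHD7-2 replicate 2 in 232 (59.0%) against 55.8%. Members thus exceeded the other control regions by 2.04 points in replicate 1 and by 3.41 points in replicate 2, a mean of 2.72 ± 0.972 points (SD, n = 2). The exact two-sided sign-flip test over these libraries gave p = 0.5, which is the smallest that 2 libraries can give. The difference had no stable size or sign: its mean was 0.390 points without chromosome X and 0.120 with lists of equal length, and it turned to -0.496 at a distance of over 1000 kb and to -4.38 and -4.65 without control replicate 1 or 2.

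Within the members, the outcome went with strength in control, as it did elsewhere. Retained members had a median control rank of 76.3, members called in 1 shCHD7-2 library 56.1 and lost members 46.2. When the control regions were divided into 10 strata of equal size by mean control rank, members of the weakest stratum were lost in 25 of 47 cases (53.2%) and members of the ninth in 5 of 46 (10.9%). The slope was shallower than in the other regions at the weak end. In the lowest 2 strata together 48 of 95 members were lost (50.5%, 40.6% to 60.4%) against 65.7% (63.4% to 68.0%) of the other regions. In the highest 2 strata 5 of 75 members were lost (6.67%, 2.88% to 14.7%) against 4.22% (3.34% to 5.30%). Set against other regions of the same strata, members were called more often by 3.92 points in shCHD7-2 replicate 1 and by 5.31 points in replicate 2 (mean 4.61 ± 0.982, SD, n = 2, exact two-sided sign-flip test, p = 0.5). The mean was 1.55 points with strata made from fold enrichment, 2.32 with lists of equal length, 2.49 without chromosome X and 9.62 with strata of local background, and it turned to -0.160 at over 1000 kb.

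**Figure D2:**
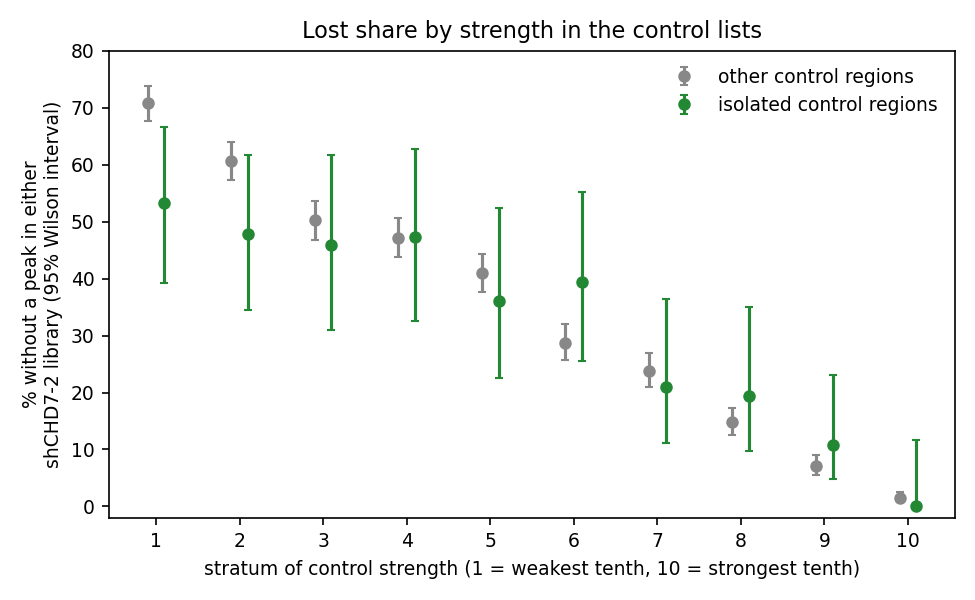
Percentage of control regions with no peak in either shCHD7-2 library (y axis) in 10 strata of strength in the control lists (x axis), for isolated and other regions, with 95% Wilson intervals over regions. The isolated regions lie below the others in the weakest strata (53.2% against 70.8% in the first) and their wide intervals overlap those of the others from the second stratum on.

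The strongest retained member lay on chromosome 8 from 77912109 to 77913214, with 1591 kb and 1231 kb of empty space on its sides. It held 79 and 70 summit reads in control and 27 and 30 in shCHD7-2 (replicates 1 and 2, in this order throughout), which is 86.2 and 83.0 against 19.3 and 18.5 times the background of its library. Reads are not on 1 scale across libraries, since the background was higher in shCHD7-2, so the levels over background are given beside them. By rank it changed less, standing at 99.95 and 99.91 in control against 95.2 and 96.7 with the hairpin. The next, on chromosome 9 from 82186099 to 82186994, held 57 and 65 reads in control and 48 and 63 reads in shCHD7-2. The reads overlapped, but over background the knockdown values of 34.3 and 38.8 times lay below the control values of 62.2 and 77.1 times. On chromosome 9 from 106855577 to 106856933 there were 66 and 55 reads in control against 46 and 56 in shCHD7-2, and on chromosome 6 from 163148146 to 163149303 there were 47 and 50 against 46 and 36, and both were lower over background in each shCHD7-2 list than in each control list. The fifth, on chromosome 7 from 61968706 to 61969723, held 42 and 38 reads in control against 65 and 66 in shCHD7-2. Over background it stood at 45.9 and 45.1 times in control against 46.4 and 40.7 times in shCHD7-2, and these values overlapped. The gap on its left was 5794 kb. No region was removed here for lying in repeats or beside a gap in the assembly, and whether mapping shaped this peak was not tested. All these members were picked for their strength in control, which by itself favours lower values in shCHD7-2. Retained members in general had medians of 21.8 and 21.4 times the background in control and 12.8 and 12.3 times in shCHD7-2. Other retained regions had 25.1 and 24.9 against 11.4 and 11.1 times.

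Among the strongest members called in 1 shCHD7-2 library, the region on chromosome 8 from 111906060 to 111907268 held 50 and 44 reads in control and 11 reads in shCHD7-2 replicate 1, with no peak in replicate 2. Its rank dropped from 99.0 and 98.2 in the control lists to 35.2. Regions on chromosome 5 from 82372751 to 82373942 (32 and 25 control reads, 13 in shCHD7-2 replicate 1) and on chromosome 6 from 70506596 to 70507407 (29 and 21 control reads, 13 in shCHD7-2 replicate 2) followed. The remaining pair of this group lay on chromosome 8 from 38853681 to 38854484 and on chromosome 22 from 40440107 to 40440814. The former kept 17 reads in shCHD7-2 replicate 1, against 27 and 34 in control, and the latter 9 reads in replicate 2, against 19 and 25. In each of these 5 the knockdown value was below both control values, in reads and over background. They were picked for strength in control and for a missing peak in 1 shCHD7-2 list. Both choices favour a low knockdown value.

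The strongest lost member spanned 2421170 to 2421982 on chromosome 11, with 29 and 33 control reads and a mean control rank of 91.5. It lay 501.4 kb from its nearest neighbour, close to the threshold of the rule. It was followed by chromosome 2 from 189156337 to 189158014, the widest member at 1678 bp, with 38 and 31 reads. Both control lists held 22 reads at chromosome 15 from 36871484 to 36872282, and they held 27 and 22 reads at chromosome 3 from 105587432 to 105588451. The region on chromosome 6 from 145336918 to 145337592 held 18 and 22 reads.

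The 5 most remote members were mostly lost. Their mean control ranks ran from 17.0 to 62.9, against a median of 60.7 over all members. The farthest, on chromosome 2 from 80162945 to 80163338, was 4225 kb from its nearest neighbour and held 9 and 11 control reads. It was lost, as were chromosome 22 from 24951644 to 24951971 (9 and 8 reads) and chromosome 9 from 41954818 to 41955200 (9 and 8 reads). Also lost was chromosome 22 from 51021011 to 51021574, with 16 reads in control replicate 2. Its reads in control replicate 1 are left out, since the background solved there was only 0.242 times that of the library. The fifth in distance, on chromosome 16 from 62259664 to 62260138, was retained, with 12 and 16 reads in control and 15 and 13 reads in shCHD7-2 (13.1 and 19.0 against 10.7 and 8.01 times the background). Over all members there was no steady course with distance: the lost share was 37.0% of 119 members at 500 to 600 kb, 26.7% of 120 at 600 to 800 kb, 32.6% of 92 at 800 to 1200 kb and 40.3% of 62 beyond 1200 kb. The Wilson intervals of these shares overlapped (28.8% to 45.9% in the first class and 29.0% to 52.7% in the last). Beyond 1200 kb the retained share was 43.5% and the median control rank 57.5.

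Whether a member kept its peak went with what surrounded it. The rule leaves the flanks free of regions called in both control libraries, but not of other regions: 343 members had some region of another class within 500 kb. In 244 members at least 1 of those regions belonged to a shCHD7-2 list, and of these 39 were lost (16.0%, 11.9% to 21.1%) and 144 retained (59.0%, 52.8% to 65.0%). Of 99 members whose flanks held regions of control lists alone, 61 were lost (61.6%, 51.8% to 70.6%). Of 50 members with no region of any list in their flanks, 31 were lost (62.0%, 48.2% to 74.1%). The median control ranks of these classes were 60.7, 60.6 and 58.3. A single region of a shCHD7-2 list in the flanks went with a lost share of 18.3% in 60 members, and 3 or more went with 15.6% in 135 members. The retained share was 43.3% with 1 such region, 65.3% with 2 and 63.7% with 3 or more.

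That division draws on the same lists that decide presence, so it was repeated across libraries. Among 187 members with a region of shCHD7-2 replicate 1 in their flanks, 146 were called in shCHD7-2 replicate 2 (78.1%, 71.6% to 83.4%), against 86 of 206 without one (41.7%, 35.2% to 48.6%). In the reverse direction, 146 of 218 members with a region of replicate 2 in their flanks were called in replicate 1 (67.0%, 60.5% to 72.9%), against 56 of 175 without one (32.0%, 25.5% to 39.2%). The gap remained without close neighbours. With regions nearer than 100 kb left out, the shares were 79.1% against 43.4% and 67.9% against 35.0%. With the members divided at their median control rank, it was present among the weaker (66.3% against 26.9% for presence in replicate 2) and among the stronger (88.8% against 58.2%), and without chromosome X (75.9% against 40.8%). For other control regions too, regions called in both control libraries were not counted in the flanks, although such regions lay near them. By that count other control regions showed shares of 67.0% against 44.1% for presence in replicate 2 and 57.5% against 36.8% for presence in replicate 1, so the relation was not limited to the isolated ones. This split was made after values had been seen and was not tested, and members that share a flank are not independent of each other.

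**Figure D3:**
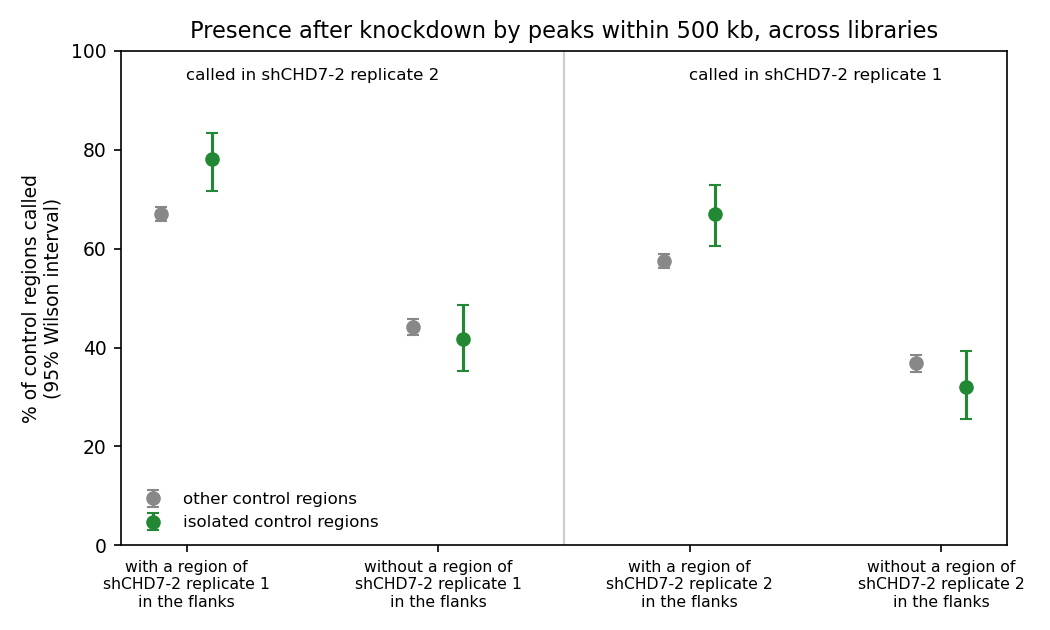
Percentage of control regions called in a shCHD7-2 library (y axis) according to whether a region of the other shCHD7-2 library lay within 500 kb (x axis), for isolated and other control regions, with 95% Wilson intervals over regions. Regions called in both control libraries were not counted in the flanks. For isolated regions the shares are 78.1% with and 41.7% without such a region for presence in replicate 2, and 67.0% and 32.0% for presence in replicate 1.

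The state of the nearest control region, always more than 500 kb off, went the same way. When that neighbour was lost, 74 of 137 members were lost too (54.0%, 45.7% to 62.1%). When it was retained, 31 of 169 members were lost (18.3%, 13.2% to 24.9%). The corresponding shares in the other control regions, whose neighbours are near, were 46.3% and 24.1%. Of the 107 pairs of members that were neighbours of each other, 29 were lost together, 29 were retained together and 10 held 1 lost and 1 retained member.

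Long runs of members made this visible along the chromosome. On chromosome 1 a run of 5 members over 24231 kb, from 119682581 to 143913707, was retained throughout, with 10 to 29 reads in the shCHD7-2 lists. Of this span, 22428 kb was the single gap before the last member, and gaps in the assembly were not removed. The region beside that gap, from 121484607 to 121485380, held 16 and 17 reads in control and 26 and 28 in shCHD7-2. Over background its values overlapped, at 17.5 and 20.2 times in control and 18.6 and 17.3 times in shCHD7-2. On chromosome 3 a run of 5 from 73674126 to 87277107 held 4 retained members and 1 called in shCHD7-2 replicate 1 alone. Farther along the same chromosome, a run of 4 from 105085008 to 106959935 held 3 lost members and 1 called in shCHD7-2 replicate 2. On chromosome 5, 4 members between 18698356 and 30041139 were lost one after the other, with 8 to 16 control reads, while the fifth of that run, from 31532151 to 31532916, had 25 and 28 control reads and was retained. On chromosome X a run of 4 from 85302172 to 93433748 held 3 retained members and 1 called in shCHD7-2 replicate 2 alone. Runs on chromosomes 15, 17 and 18 held retained and lost members side by side.

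The 500 kb flanks of members held more of some classes of knockdown peaks than their length, and less of another. Flanks of 500 kb made up 12.8% of the span covered by regions. They held 72 of the 479 regions called in both shCHD7-2 lists and in no control list (15.03%). Of regions called in both shCHD7-2 lists and in 1 control list they held 79 of 493 (16.0%). They also held 15.4% and 14.6% of the regions found in shCHD7-2 replicate 1 or 2 alone. Of regions called in 1 control and 1 shCHD7-2 library they held 107 of 1148 (9.32%), at 0.285 per Mb against 0.408 elsewhere. Of regions found in control replicate 1 or 2 alone they held 9.72% and 9.92%. The density of regions called in both shCHD7-2 lists and in no control list was 0.192 per Mb in the flanks and 0.159 per Mb elsewhere. For control replicate 1 alone it was 0.933 against 1.27 per Mb. Within 100 kb of the members, regions called in both shCHD7-2 lists and in no control list stood at 0.166 per Mb against 0.164 elsewhere. Regions of shCHD7-2 replicate 2 alone stood at 0.716 against 0.720 per Mb, and those of replicate 1 alone at 0.627 against 0.490. Regions called in both shCHD7-2 lists and 1 control list stood at 0.269 against 0.166 per Mb. For 1 control and 1 shCHD7-2 library the direction turned, to 0.473 against 0.390 per Mb. The rule itself empties the flanks of regions common to both control lists, and its part in these densities was not tested.

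Members that kept their peak ranked higher in the knockdown lists than other retained regions did, and lower in the control lists. The 172 retained members had median ranks of 79.9 and 75.3 in control replicates 1 and 2, against 82.5 and 80.7 for the 3223 other retained regions. In shCHD7-2 replicates 1 and 2 their median ranks were 79.4 and 79.0, against 69.2 and 73.2. The difference between members and others was -4.01 ± 2.06 rank points in control and 7.99 ± 3.10 in shCHD7-2 (SD, n = 2 each), negative in both control libraries and positive in both shCHD7-2 libraries. The shift between the groups was 12.0 points, and the exact two-sided permutation test over libraries gave p = 0.3333, the smallest that 2 against 2 can reach. The control lists chose both the members and the others, so control and shCHD7-2 libraries are not interchangeable. For that reason the permutation tests of this paragraph cannot decide on a difference between the groups. Taken alone, the median rank of the retained members was 77.6 ± 3.27 in control and 79.2 ± 0.259 in shCHD7-2 (SD, n = 2 each, difference 1.62, exact two-sided permutation test, p = 1), and the groups overlapped. With lists of equal length this difference was 7.63, and at a -log10 q of at least 5 it was -3.83. With ranks by fold enrichment the shift between members and others was 6.56 points.

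In median fold enrichment the members differed from the others by 0.01 and -0.04 in control, with no common direction, and by 0.28 and 0.29 in shCHD7-2. In summit reads the medians of retained members were 20 and 18 in control and 18 and 20 in shCHD7-2, whereas those of other retained regions were 23 and 21 in control and 16 and 18 in shCHD7-2. Peak widths followed: the retained members were narrower than the others by 72 and 115 bp in the control lists and wider by 14.5 and 12.5 bp in the shCHD7-2 lists. In units of the library background, the summit of retained members stood at 21.8 and 21.4 times in control and at 12.8 and 12.3 times in shCHD7-2, against 25.1 and 24.9 times and 11.4 and 11.1 times in the others. Both sets were thus lower over background in both shCHD7-2 lists, the members by less.

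At single regions, 53 of the 172 retained members (30.8%) ranked higher in both shCHD7-2 lists than in both control lists, against 13.9% of all regions called in the 4 libraries. A further 34 (19.8%) ranked lower in both, against 41.4%, and the other 85 overlapped. The median absolute difference in rank between replicates was 10.0 points in control and 11.8 points in shCHD7-2 for retained members. Against regions of the same control stratum, members called in shCHD7-2 replicate 1 ranked higher there by a mean of 9.56 points, and those called in replicate 2 by 8.39 points (mean 8.98 ± 0.829, SD, n = 2, exact two-sided sign-flip test, p = 0.5).

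Over the whole set, ranks in the shCHD7-2 lists were higher where the nearest control region was farther. Among regions called in all 4 libraries, the median rank in shCHD7-2 replicate 1 was 65.5 for regions within 10 kb of a neighbour, 71.5 at 100 to 250 kb and 79.4 beyond 500 kb. In shCHD7-2 replicate 2 it was 69.3, 75.1 and 79.0. In control replicate 1 it was 82.0, 82.2 and 79.9, and in control replicate 2 it was 79.97, 81.2 and 75.3. The course was not steady in shCHD7-2 replicate 1, with 69.2 at 10 to 50 kb and 67.2 at 50 to 100 kb, and in replicate 2 it had nearly reached its end at 250 to 500 kb, with 78.5. The lost share was 40.8% for regions within 10 kb of a neighbour, 30.7% at 250 to 500 kb and 33.3% in the members. The interval of the members, 28.9% to 38.1%, included the value at 250 to 500 kb. Regions within 10 kb also had the lowest median control rank, 56.9, against 59.9 at 250 to 500 kb and 60.7 in the members. These shares were not adjusted for control rank.

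**Figure D4:**
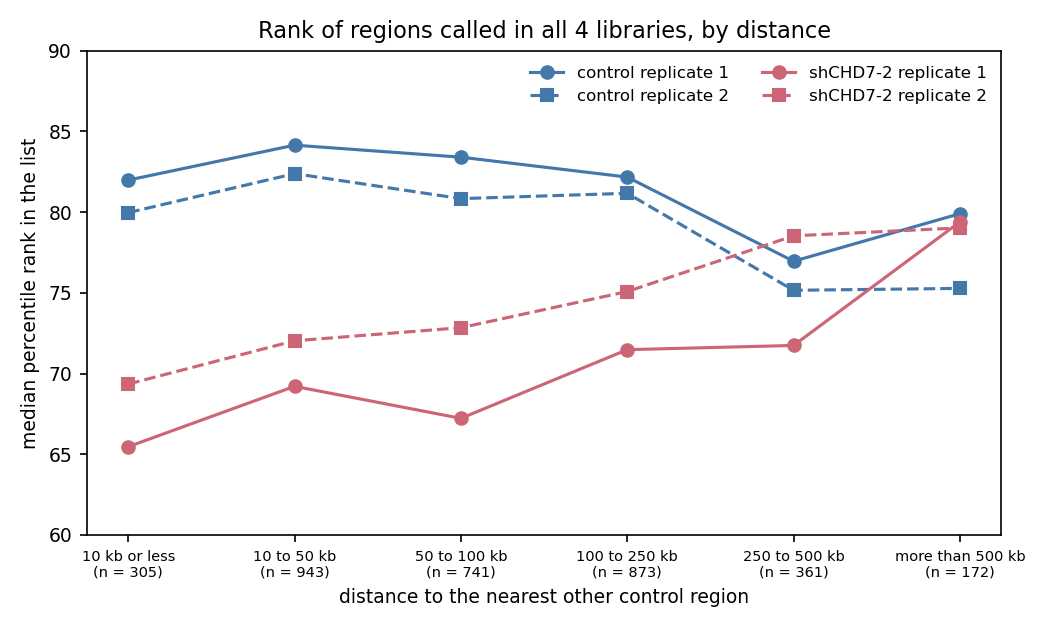
Median percentile rank within each list (y axis, from 60 to 90) of regions called in all 4 libraries, by distance to the nearest other control region (x axis, number of regions below each class). The shCHD7-2 lines go from 65.5 and 69.3 to 79.4 and 79.0, and the control lines lie at 79.9 and 75.3 for the isolated regions at the right.

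Members were found on all 23 chromosomes examined, most often on chromosomes 5 (33 members), 4 (31) and 2 (29). As a share of control regions they were most frequent on chromosome 22 (10 of 45, 22.2%), which also had the fewest control regions per Mb at 1.37, and least frequent on chromosome 19 (2 of 210, 0.952%), where there were 3.58 per Mb. Loss differed widely between chromosomes. On chromosome X, 22 of 26 members were retained, 3 were called in 1 shCHD7-2 library and 1 was lost (3.85%, 0.682% to 18.9%), whereas 74 of the 261 other control regions of that chromosome were lost (28.4%, 23.2% to 34.1%). The retained members of chromosome X had median reads of 15.5 and 15 in control and 16.5 and 17.5 in shCHD7-2, which over background is 16.9 and 17.8 times against 11.8 and 10.8 times. The median control rank of the 26 members was 68.2, against 59.1 for the other regions of that chromosome.

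On chromosome 4, 17 of 31 members were lost (54.8%, 37.8% to 70.8%) against 32.5% (28.1% to 37.1%) of the other control regions. The median control rank of members was 50.3 there, against 67.1 for the others. Chromosome 6 lost 12 of 24 members (interval 31.4% to 68.6%) against 35.5% of the others, with ranks of 52.0 and 65.3. Chromosomes 12 and 13 lost 9 of 14 and 9 of 15 members, where 47.7% and 36.7% of all control regions were lost. On chromosome 22, 8 of 10 members were lost and the other 2 were called in 1 shCHD7-2 library, but 73.3% of all control regions were lost there. Chromosome 9 lost 2 of 17 members, and 30.1% of all its control regions. Leaving out chromosome X, 130 of 367 members were lost (35.4%) against 34.7% of the other control regions. These chromosomes were picked after their values had been seen.

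**Figure D5:**
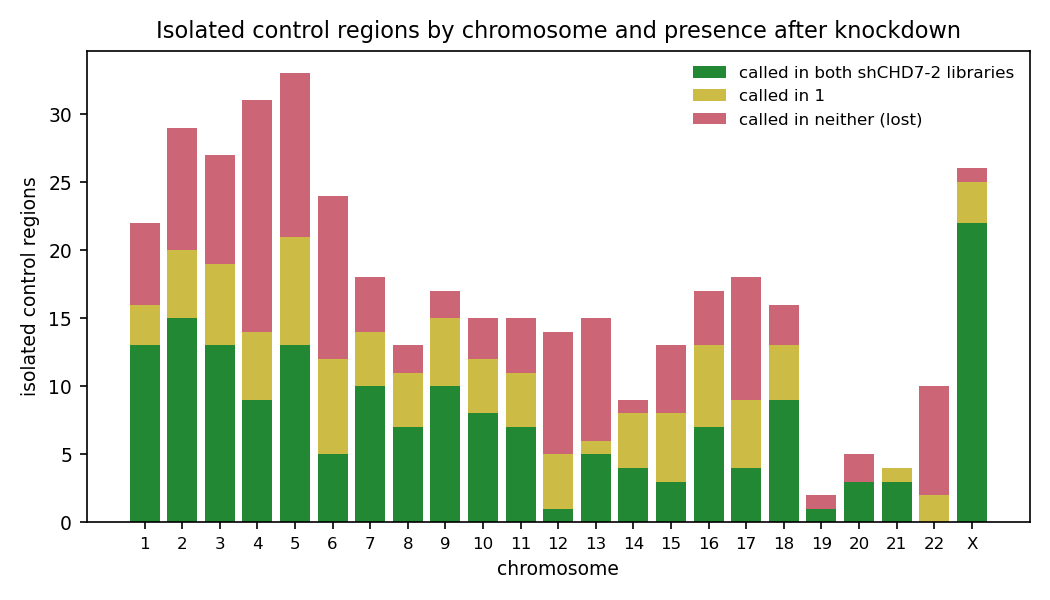
Number of isolated control regions on each chromosome (bars, y axis), divided into those called in both, in 1 and in neither shCHD7-2 library. Chromosome X has 22 of its 26 in the retained class, and chromosome 4 has 17 of its 31 in the lost class.

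Isolation itself was partly a property of the control lists. The 4367 regions called in both shCHD7-2 libraries were a smaller set and held 654 (14.98%) that were isolated by the same distance among themselves. Of these, 100 were also members, which is 25.4% of the members and 15.3% of the regions isolated in the knockdown lists. Another 409 were called in both control libraries too but had a control neighbour within 500 kb, and 145 were called in at most 1 control library. Of the 172 retained members, 100 thus kept an empty space of 500 kb on both sides among the regions called in both shCHD7-2 libraries.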

How the data were processed

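The authors deposited 1 list of peaks in the narrowPeak layout for each library. The submitters' processing notes name Bowtie2 2.2.5, SAMtools 1.9, MACS2 2.1.2, deepTools 3.3.0 and the hg19 build. Whether duplicates were removed and reads moved to the transposase cut is not given in the sources used here, and either step can alter which peaks are listed. The values were used as deposited: the fold enrichment at the summit, which is a ratio to local background within 1 library, and the -log10 of p and q. The score deposited with each peak was not used. The lowest -log10 q was 1.30 to 1.32 in the 4 lists and the narrowest peak was 200 bp.

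Whole summit reads k and a background b were solved from each peak, with fold (k + 1) / (b + 1) and a Poisson p. For 100% of peaks the p was matched to within 0.001 on its -log10 scale. More than 1 pair of k and b can give nearly the same fold and p. Some peaks of control replicates 1 and 2 were given a background as low as 0.242 and 0.263 times that of the library. The reads solved for such peaks may be too low. As library background the commonest b was used, a guide to depth provided that the caller treated fragment length alike in every library. The strongest peak of a library stood for a region, and starts are printed as a genome browser counts them. The sources used here gave no sequence or genes on hg19, so none are reported.

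The members, the lists and several splits were chosen with earlier results of these data known. Shares carry 95% Wilson intervals, which cover counting error. Standardised differences weight the other regions to the control strata of the members. Exact tests ran over libraries. Regions were named by rule: the 5 strongest in control of each class, the 5 most remote, and those nearest the threshold; runs of 4 or more members were added. Isolation and standardisation were checked on simulated lists. In those lists the peaks of a region had the same ends in all libraries, and isolated regions lay well beyond the distance threshold. Merging of partly overlapping peaks and gaps near the threshold were therefore not checked. Python 3.11.15, NumPy 2.4.6, pandas 2.3.3, SciPy 1.17.1, statsmodels 0.14.6 and matplotlib 3.10.9 were used. No pairing of libraries by the numbers in the titles was visible: over 3395 regions called in all 4, the rank differences within the groups had a correlation of -0.05. Ranks within a list remove any effect on a whole library, so this value cannot exclude a pairing.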

Additional observations from a re-analysis of the deposited data

Results flagged for a closer look

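Among regions called in all 4 libraries, isolated regions differed from the others in opposite directions in the 2 groups, in both libraries of each, in rank, summit reads and width. In fold enrichment they did not, with differences of 0.01 and -0.04 in control and 0.28 and 0.29 in shCHD7-2. The shift from control to shCHD7-2 was 12.0 points in median percentile rank, 5 in median summit reads and 107 bp in median peak width. The 3 measures come from the same peaks and are not independent of each other. For each of them the exact two-sided permutation test over libraries gave p = 0.3333, the smallest this design allows, so the difference between groups was not shown by a test. The control lists also chose the regions, so the libraries are not interchangeable between groups and this test cannot decide.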

How the results depend on the processing

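The number of isolated regions depended on the rule for distance, with 1203 at over 250 kb, 94 at over 1000 kb and 50 when regions of any list counted as neighbours, against 393. The last setting uses the shCHD7-2 lists in the choice itself. Under it 62.0% of members were lost and 20% retained, and members were called less often than other control regions, with differences of -23.8 points and, within strata, -20.6 points. The ranks reversed too: the change in median rank of retained members was -16.1, the shift between members and others -6.15, and the stratified rank difference -0.113 points. At over 1000 kb the lost share was 38.3%, and the differences in called share were -0.496 and, within strata, -0.160 points. The lost share was 44.9% and the retained share 33.5% at a -log10 q of at least 5, and 24.5% and 52.5% with lists of equal length, which removes weak control peaks by construction.

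The change in median rank of retained members, 1.62 points, had no stable sign. It was -3.83 at the stricter q, -0.111 at over 250 kb, -0.105 at over 1000 kb and -2.06 with ranks by fold enrichment, but 7.63 with lists of equal length. The shift between members and others kept its direction in 13 of 14 alternatives and the stratified rank difference in 14 of 15. The cause of these differences was not tested.

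Leaving out 1 library gave a lost share of 41.1% to 55.6%, a retained share of 23.9% to 58.9%, a difference in called share of -4.65 to 3.29 points and a change in rank of -0.108 to 5.97 points, since a single library then decides a call. The control libraries moved the shares most: without control replicate 1 the lost share was 53.0%, the retained share 27.0% and the difference in called share -4.38 points, and without control replicate 2 they were 55.6%, 23.9% and -4.65 points.

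In a fit with the replicate block, the shift was 12.0 points (exact sign-flip test, p = 0.5) and the change in median rank 1.62 points (p = 1, exact). The numbers mark no known pairing.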
